A study of Mus musculus with 18 samples.

Results

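Oligodendrocyte precursor genes, 10 in all, were followed through the adult mouse cerebellum in 2 genotypes and at 3 ages. They are Pdgfra, Cspg4, Gpr17, Olig1, Olig2, Enpp6, Bcas1, Neu4, Ptprz1 and Sox6, taken by symbol from a table of 22783 genes, and all 10 were found and tested. RNA came from dissected cerebella of FVB mice at postnatal weeks 5, 12 and 28, with 3 libraries for each genotype and age and 18 libraries in all. ATXN1[30Q]D776/Cck-/- mice, called transgenic hereafter, carry a human ataxin-1 transgene with an aspartate in place of a phosphorylated serine and are also labelled Cck-/-, for the gene of the peptide cholecystokinin. Cck-/- mice, without the transgene, are the group they were set against, so both genotypes share the label Cck-/-, and no wild-type library was analysed here. In the published line of that name the transgene is driven by a promoter active in Purkinje cells, the large inhibitory neurons of the cerebellum, which the labels do not state.

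Oligodendrocytes wrap axons in myelin, and they arise from precursor cells that persist and go on dividing in the adult brain. A precursor carries the platelet-derived growth factor receptor Pdgfra and the surface proteoglycan NG2, the product of Cspg4. As it commits to differentiation it passes through a short-lived stage marked by Gpr17, Bcas1, Enpp6 and Neu4, and then switches on the genes of mature myelin. Olig1 and Olig2 are basic helix-loop-helix transcription factors of the whole lineage. In mice, Sox6 holds precursors back from differentiation, and Ptprz1 is a receptor tyrosine phosphatase found on precursors, Bergmann glia and astrocytes.

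The table holds FPKM values, fragments scaled to transcript length and to the mapped fragments of a library, which make levels comparable between genes per length. Over the 18 libraries the median FPKM was 52.9 for Ptprz1, 48.9 for Olig1, 43.6 for Bcas1, 8.87 for Olig2, 5.47 for Gpr17, 4.77 for Pdgfra, 4.30 for Enpp6, 2.19 for Sox6, 1.70 for Neu4 and 1.05 for Cspg4. The first 3 stood together, with ranges over libraries of 42.8 to 64.2 FPKM for Ptprz1, 35.0 to 75.5 for Olig1 and 31.6 to 51.1 for Bcas1 that overlapped. Olig2, Gpr17, Pdgfra and Enpp6 likewise overlapped one another, at 6.99 to 12.1, 2.83 to 12.5, 3.39 to 7.22 and 2.82 to 9.17 FPKM. Of the 10, 9 were at 1 FPKM or more in all 18 libraries, and Cspg4 in 11. In a whole cerebellum fewer cells of a type and less RNA per cell cannot be told apart. Several of these genes have other sources: fibroblasts of the meninges express Pdgfra and pericytes express Cspg4.

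Every library summed to between 389248 and 441509 FPKM. Relative depth, read from the step between neighbouring low values, ran from 0.724 to 1.68 times that of the median library. All 6 libraries of week 28 stood at 1.28 to 1.68 and those of weeks 5 and 12 at 0.724 to 1.062, so depth and the age of 28 weeks cannot be told apart. Pcp2, a Purkinje cell gene that marks the tissue, stood at 232 to 731 FPKM in transgenic and 684 to 817 FPKM in Cck-/- libraries. Cck itself stood at 81.0, 112 and 102 FPKM in transgenic libraries of week 5 and at 25.8 FPKM or less in the other 15, although every animal is labelled Cck-/-. Effects of the transgene at week 5 and of this Cck level therefore cannot be told apart, and this holds for every comparison that uses those 3 libraries. Whether replicates were separate mice is not given by the labels, so p-values measure only the spread between libraries.

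The promoters of Olig2, Enpp6 and Neu4, which fell together between weeks 5 and 12 in Cck-/- libraries, and of Ptprz1, which rose, are shown so that their letters can be compared. Each is the 250 bases before the gene's start, on the plus strand of GRCm38.p6 (mm10), from RefSeq: chr16:91225300-91225549 for Olig2, chr8:46986637-46986886 for Enpp6, chr1:94020243-94020492 for Neu4 and chr6:22875252-22875501 for Ptprz1. Capitals mark matches, on either strand, to the E-box CANNTG read by basic helix-loop-helix factors such as Olig1 and Olig2, and to ACAAAG or AACAAT, letters read by Sox factors.
Olig2: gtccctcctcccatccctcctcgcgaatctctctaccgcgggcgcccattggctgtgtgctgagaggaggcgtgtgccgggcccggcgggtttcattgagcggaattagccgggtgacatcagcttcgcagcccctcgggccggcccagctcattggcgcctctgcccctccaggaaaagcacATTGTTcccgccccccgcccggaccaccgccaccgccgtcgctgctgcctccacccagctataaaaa
Enpp6: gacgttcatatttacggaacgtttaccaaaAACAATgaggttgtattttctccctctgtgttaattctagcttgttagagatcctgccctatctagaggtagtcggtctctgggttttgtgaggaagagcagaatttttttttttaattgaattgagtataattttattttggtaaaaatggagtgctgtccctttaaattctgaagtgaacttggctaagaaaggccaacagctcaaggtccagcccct
Neu4: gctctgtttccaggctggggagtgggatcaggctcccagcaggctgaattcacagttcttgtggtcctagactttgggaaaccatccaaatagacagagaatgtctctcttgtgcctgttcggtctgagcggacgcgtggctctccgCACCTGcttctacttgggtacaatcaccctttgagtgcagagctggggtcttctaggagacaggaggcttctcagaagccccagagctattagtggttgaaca
Ptprz1: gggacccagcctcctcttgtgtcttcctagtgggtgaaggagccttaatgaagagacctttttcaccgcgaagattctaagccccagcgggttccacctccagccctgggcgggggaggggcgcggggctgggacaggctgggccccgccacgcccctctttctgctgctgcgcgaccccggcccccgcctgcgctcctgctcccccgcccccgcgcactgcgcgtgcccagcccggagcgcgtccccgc
Olig2 held AACAAT on the minus strand, printed as ATTGTT with its first letter at position -67, counted from the RefSeq start. It held TATAAA, not in capitals, at -8. In the GENCODE annotation of the same build Olig2 starts at 91225457, inside this window, so both matches lie after that start. Enpp6 held AACAAT at -220, and Neu4 held an E-box at -103. Ptprz1 held none of the motifs searched, which were CANNTG with its subset CAGCTG, the Sox letters ACAAAG and also AACAAT, and the TATA box TATAAA. Among 32851 mouse promoters of this length, 66.2% held CANNTG, 13.00% CAGCTG, 16.5% ACAAAG, 9.42% AACAAT and 12.4% TATAAA. The RefSeq table held promoters for 7 of the 10 genes, not for Gpr17, Olig1 and Bcas1.

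Pdgfra and Sox6 were called in no comparison, and Bcas1 in none between ages. Between weeks 5 and 12 in Cck-/- libraries, Gpr17, Enpp6, Olig1, Olig2 and Neu4 fell and Ptprz1 rose, so that 6 of the 10 genes were called at an adjusted p under 0.05 by limma, against 11.8% of all genes tested. For the 5 that fell, the share of all genes called lower was 6.53%. In transgenic libraries over the same interval 1 gene, Gpr17, fell, against 1.19% of all genes tested. The median log2 fold change of the 10 genes, week 12 over week 5, was -0.16 in transgenic and -0.36 in Cck-/- libraries, with a median over all genes within 0.01 of 0 in both. The 2 genotypes differed in none of the 10 genes in this change by limma's test of the interaction, in which 0.667% of all genes were called. In that test 3 of the 10 genes and 1628 of all 13487 had an unadjusted p under 0.05.

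**Figure D1:**
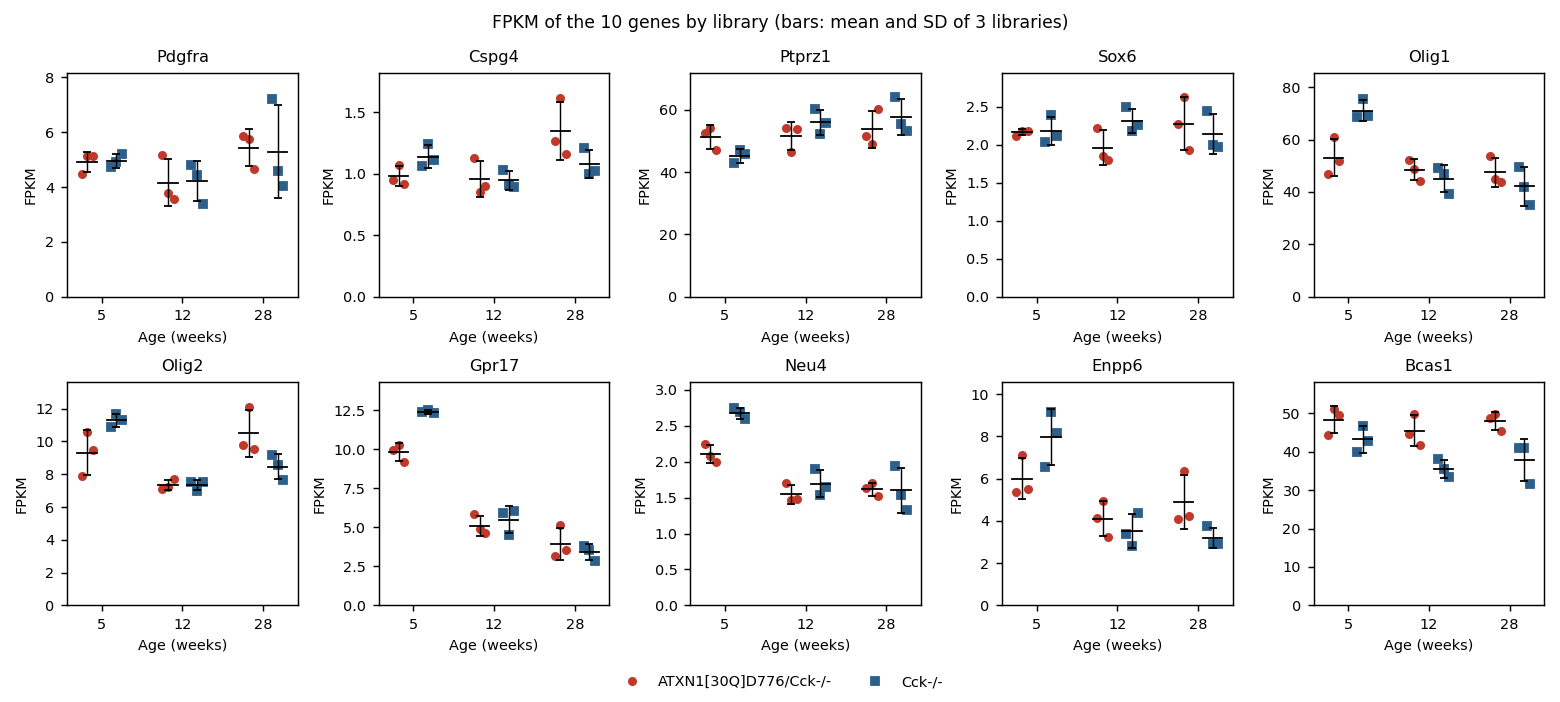
FPKM of each of the 10 genes (vertical axes, each from 0) against age in weeks, for transgenic (red circles, left) and Cck-/- (blue squares, right) libraries. Points are single libraries and black bars the mean and SD of 3. Gpr17 was highest at week 5 in both genotypes, at 9.18 to 10.3 FPKM in transgenic and 12.3 to 12.5 in Cck-/- libraries, and had its lowest mean at week 28.

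Pdgfra is the receptor through which platelet-derived growth factor AA keeps precursors alive and dividing (chromosome 5, 75152291 to 75198204, mm10). In transgenic libraries it stood at 4.48, 5.13 and 5.13 FPKM at week 5, at 5.16, 3.77 and 3.56 at week 12 and at 5.88, 5.77 and 4.66 at week 28. In Cck-/- libraries it stood at 4.72, 4.91 and 5.21 FPKM at week 5, at 4.81, 4.45 and 3.39 at week 12 and at 7.22, 4.58 and 4.06 at week 28. The genotypes overlapped at every age, and the single highest library was Cck-/- week 28 replicate 1. The genotype effect on Pdgfra, transgenic over Cck-/-, was a log2 fold change of -0.01 ± 0.16 (SE) at week 5, -0.02 ± 0.16 at week 12 and 0.06 ± 0.16 at week 28, with 95% intervals of -0.35 to 0.33, -0.36 to 0.32 and -0.28 to 0.40. By limma with Benjamini-Hochberg adjustment the adjusted p was 0.983, 0.990 and 0.849, and the sign turned with single libraries left out. The 10 fibroblast and meninges markers were also highest in Cck-/- week 28 replicate 1, where they summed to 216 FPKM and Dcn, a matrix protein of fibroblasts, stood at 45.5 FPKM. Their sums ranged from 120 to 160, 97.7 to 156 and 137 to 196 FPKM in transgenic libraries of weeks 5, 12 and 28, and from 103 to 157, 85.8 to 116 and 113 to 216 in Cck-/- libraries. None of the 10 markers was at 0 in any group, and their part in the Pdgfra values was not tested. Cck-/- week 28 replicate 1 was also the highest of the 18 libraries in summed blood markers, at 1239 FPKM. The same held for summed Bergmann glia and astrocyte markers, at 2725 FPKM, and for relative depth, at 1.679 times that of the median library. The part of these was not tested either.

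Cspg4 encodes NG2, shared by precursors and pericytes (chromosome 9, 56865104 to 56899870). Transgenic libraries held 0.953, 1.07 and 0.921 FPKM at week 5, 1.13, 0.853 and 0.899 at week 12 and 1.27, 1.61 and 1.16 at week 28. Cck-/- libraries held 1.07, 1.24 and 1.11 FPKM at week 5, 1.03, 0.913 and 0.895 at week 12 and 1.21, 0.999 and 1.02 at week 28. The 3 transgenic libraries of week 28 stood just above all 6 younger transgenic ones. Between weeks 12 and 28 in transgenic libraries Cspg4 rose by a log2 fold change of 0.26 ± 0.08 (SE; adjusted p = 0.0337, limma), and between weeks 5 and 28 by 0.24 ± 0.08 (adjusted p = 0.0325, limma). Of all genes tested, 23.8% were called in the first comparison and 36.9% in the second. The first call was lost without transgenic week 12 replicate 2 or 3 or week 28 replicate 1 or 2 (adjusted p by limma 0.0646 to 0.164), and the second without week 5 replicate 1 or 3 or week 28 replicate 1 or 2 (0.0539 to 0.165). Quantile normalization also ended both, at 0.16 and 0.09 (adjusted p by limma 0.101 and 0.316). Pericyte and mural cell markers, 9 in the list and none at 0, summed to 79.5 to 103 FPKM in transgenic libraries of week 28, against 75.0 to 97.99 at week 12 and 85.8 to 99.0 at week 5, and 0 of 8 tested were called in these comparisons; their part in Cspg4 was not tested.

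Ptprz1, the receptor phosphatase (chromosome 6, 22875502 to 23052916), was the gene of the 10 called higher with age in Cck-/- libraries. It stood at 52.6, 54.2 and 47.1 FPKM in transgenic libraries at week 5, at 54.2, 46.4 and 54.0 at week 12 and at 51.7, 49.1 and 60.3 at week 28. In Cck-/- libraries the values were 42.8, 47.2 and 45.7 FPKM at week 5, 60.2, 52.2 and 55.8 at week 12 and 64.2, 55.6 and 53.2 at week 28. The 3 Cck-/- libraries of week 5 were below all 6 older ones, and the transgenic ages overlapped. Ptprz1 rose in Cck-/- libraries by 0.30 ± 0.09 between weeks 5 and 12 (log2 fold change ± SE; adjusted p = 0.0402, limma) and by 0.34 ± 0.09 between weeks 5 and 28 (adjusted p = 0.00917, limma). The rise to week 12 lost its call without any 1 of the Cck-/- week 5 replicates or without week 12 replicate 1 or 3 (adjusted p by limma 0.0675 to 0.156). The interaction with genotype was -0.30 ± 0.13 for week 12 against 5 and -0.28 ± 0.13 for week 28 against 5, neither called (adjusted p by limma 0.366 and 0.241). Bergmann glia and astrocyte markers, 12 in all and none at 0, summed to 2331 to 2474 FPKM in Cck-/- libraries of week 12 and to 2414 to 2718 at week 5. Of the 12, 1 was called lower at week 12, Fabp7 by 0.85 on the log2 scale, and their part in Ptprz1 was not tested.

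Sox6 (chromosome 7, 115470872 to 116038744), the repressor of differentiation, ranged from 2.12 to 2.19 FPKM at week 5, 1.80 to 2.22 at week 12 and 1.93 to 2.63 at week 28 in transgenic libraries, and from 2.04 to 2.39, 2.19 to 2.50 and 1.97 to 2.45 FPKM in Cck-/- libraries. The ranges of both genotypes overlapped at every age, and limma called it in none of the 13 comparisons.

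Olig1 and Olig2 lie next to each other on chromosome 16, at 91269769 to 91271939 and 91225550 to 91228677, and drive formation of the lineage. Olig1 stood at 46.7, 60.8 and 51.7 FPKM in transgenic libraries at week 5, at 52.4, 48.8 and 44.3 at week 12 and at 53.9, 44.8 and 43.9 at week 28. The Cck-/- values were 68.6, 75.5 and 69.1 FPKM at week 5, 49.1, 47.0 and 39.3 at week 12 and 49.6, 41.8 and 35.0 at week 28. Cck-/- week 5 thus held the 3 highest libraries of all 18, and the 3 transgenic libraries of week 5 lay below them. Olig1 fell in Cck-/- libraries by 0.65 ± 0.12 between weeks 5 and 12 (log2 fold change ± SE; adjusted p = 0.00375, limma) and by 0.75 ± 0.12 between weeks 5 and 28 (adjusted p = 3.61e-04, limma). In the GENCODE annotation of the same build, 157 of 2162 exon bases of Olig1 (7.26%) lie under Gm15966 on the opposite strand, and strand use in counting is not given.

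Olig2 stood at 7.88, 10.6 and 9.48 FPKM in transgenic libraries at week 5, at 7.09, 7.22 and 7.70 at week 12 and at 9.81, 12.1 and 9.53 at week 28. Olig2 in Cck-/- libraries stood at 10.9, 11.7 and 11.3 FPKM at week 5, at 7.50, 6.99 and 7.55 at week 12 and at 9.15, 8.58 and 7.66 at week 28. Both genotypes were lowest at week 12, where they overlapped and had means of 7.34 ± 0.322 FPKM in transgenic and 7.35 ± 0.313 FPKM in Cck-/- libraries (SD, n = 3 each). Olig2 fell in Cck-/- libraries by 0.56 ± 0.09 between weeks 5 and 12 (log2 fold change ± SE; adjusted p = 0.00154, limma). It rose in transgenic libraries by 0.46 ± 0.09 between weeks 12 and 28 (adjusted p = 0.00377, limma), 1 of the 2 genes that rose in that comparison, in which 23.8% of all genes were called and 10.2% were called higher. Between weeks 5 and 28 it fell in Cck-/- libraries by 0.38 ± 0.09 (adjusted p = 0.00617, limma).

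Beside Olig2 and Cspg4, the other lists of the lineage were called between weeks 12 and 28 in transgenic libraries at shares to be read against the 23.8% of all genes called and the 10.2% called higher. Of 15 other precursor genes 3 rose and 0 fell: Vcan by 0.63, the sulfotransferase gene Chst5 by 0.41 and the protocadherin gene Pcdh15 by 0.43. Of 16 tested regulators 3 rose, Notch1 by 0.53, Myrf by 0.45 and Sox10 by 0.32, and Id2 fell by 0.41. Of 22 mature myelin genes 3 rose and 0 fell, and of 16 other committed and newly formed genes 2 rose and 3 fell. Over the same interval 7 of 8 Purkinje cell markers fell, with sums of 953 to 1856 FPKM at week 28 and 2268 to 2504 FPKM at week 12. Microglia markers rose in 8 of 9 cases, with sums of 151 to 235 FPKM at week 28 and 90.3 to 146 FPKM at week 12. Of 12 Bergmann glia and astrocyte markers 4 rose, Gfap by 0.99, Aqp4 by 0.68, Gja1 by 0.45 and Slc1a2 by 0.33, and 3 fell, Gdf10 by 0.90, Fabp7 by 0.63 and Slc1a3 by 0.57, with sums of 2216 to 2405 FPKM at week 28 and 2298 to 2389 FPKM at week 12. No marker of these lists was at 0, and their part in the rise of Olig2 and Cspg4 was not tested.

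Gpr17 is a G protein-coupled receptor of committed precursors that in mice delays their maturation (chromosome 18). It stood at 9.97, 10.3 and 9.18 FPKM in transgenic libraries at week 5, at 5.82, 4.88 and 4.62 at week 12 and at 3.16, 5.13 and 3.56 at week 28. Gpr17 in Cck-/- libraries stood at 12.4, 12.5 and 12.3 FPKM at week 5, at 5.93, 4.48 and 6.07 at week 12 and at 3.82, 3.56 and 2.83 at week 28. Every library of week 5 exceeded every older one in both genotypes, and in Cck-/- libraries the 3 ages did not overlap at all. Between weeks 5 and 12 the log2 fold change was -0.83 ± 0.13 in transgenic (adjusted p = 0.00640, limma) and -1.05 ± 0.13 in Cck-/- libraries (adjusted p = 1.59e-04, limma). Between weeks 5 and 28 it was -1.15 ± 0.13 in transgenic (adjusted p = 3.37e-05, limma) and -1.61 ± 0.13 in Cck-/- libraries (adjusted p = 7.47e-07, limma). These comparisons called 36.9% of all genes in transgenic and 33.7% in Cck-/- libraries. Between weeks 12 and 28, where 9.65% of all genes were called in Cck-/- libraries, Gpr17 fell in them by 0.56 ± 0.13 (adjusted p = 0.0172, limma) and was the only 1 of the 10 called. In transgenic libraries the Gpr17 change over that interval was -0.32 ± 0.13 and not called (adjusted p = 0.0909, limma). It was called without transgenic week 28 replicate 2 (-0.48, adjusted p = 0.0180, limma) and with quantile normalization (-0.40, adjusted p = 0.0364, limma).

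The transgenic fall of Gpr17 to week 12 lost its call without the 3 libraries low in choroid plexus genes (-0.74, adjusted p = 0.269, limma), which leaves 1 library at week 5, replicate 3, whose spread is then taken from the remaining groups, and without 3 libraries that hold both Xist and Y-linked transcripts (-0.79, adjusted p = 0.0769, limma). The Cck-/- fall from week 12 lost its call without week 12 replicate 1 or 3 or week 28 replicate 3 (adjusted p by limma 0.0633 to 0.0734). The table gives Gpr17 the same locus as Lims2, a gene on the opposite strand with which it shares 188 of 5195 exon bases (3.62%). Lims2 averaged 7.10 ± 1.34, 5.95 ± 0.780 and 5.42 ± 0.837 FPKM in transgenic libraries of weeks 5, 12 and 28 and 9.18 ± 0.746, 5.72 ± 0.720 and 5.29 ± 0.385 in Cck-/- libraries (SD, n = 3), also highest at week 5. Lims2 is itself on the list of other committed and newly formed oligodendrocyte genes, and its part in the Gpr17 values was not tested.

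Per unit of Pdgfra, Gpr17 stepped down with age in both genotypes. Its FPKM divided by that of Pdgfra ranged from 1.79 to 2.23 at week 5, 1.13 to 1.30 at week 12 and 0.538 to 0.888 at week 28 in transgenic libraries. The ratio ranged from 2.36 to 2.62, 1.00 to 1.79 and 0.529 to 0.777 in Cck-/- libraries of the same ages. The ages did not overlap in either genotype, and the genotypes did not overlap at week 5 only.

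**Figure D2:**
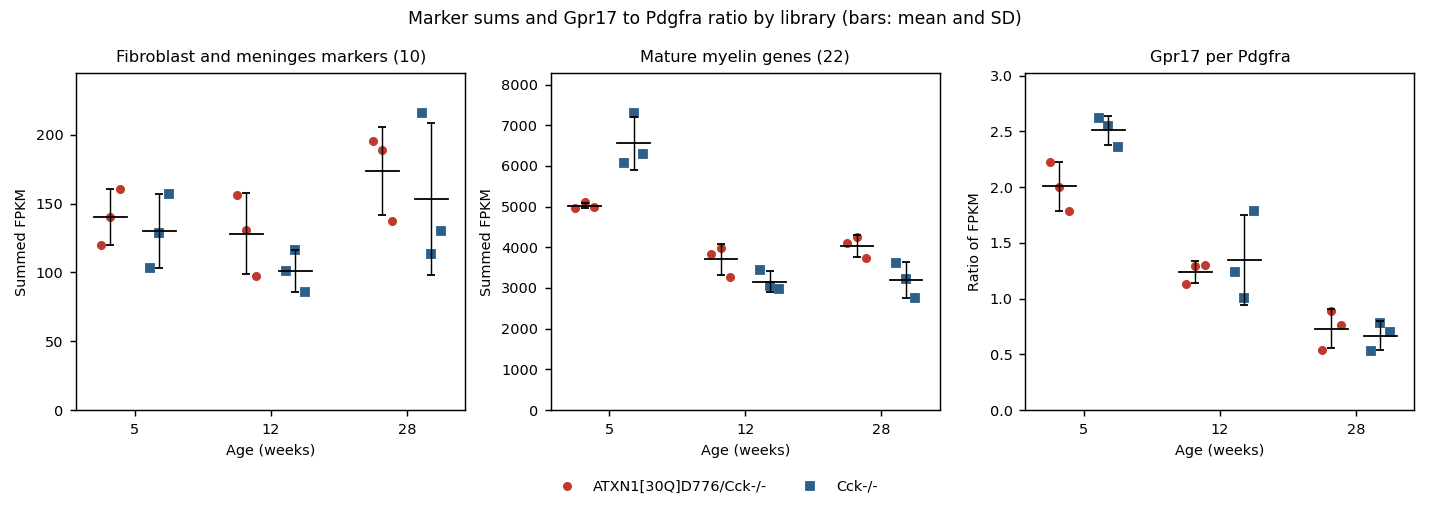
Summed FPKM of 10 fibroblast and meninges markers (left), summed FPKM of 22 mature myelin genes (middle) and the ratio of Gpr17 to Pdgfra (right) against age in weeks. Points are single libraries, transgenic (red circles, left) and Cck-/- (blue squares, right), and black bars the mean and SD of 3. Cck-/- week 28 replicate 1 stood highest in fibroblast markers, at 216 FPKM.

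Enpp6, a choline-specific phosphodiesterase of newly formed oligodendrocytes (chromosome 8, 46986925 to 47094895), fell with age in Cck-/- libraries. Transgenic libraries held 5.35, 7.12 and 5.52 FPKM at week 5, 4.16, 4.92 and 3.25 at week 12 and 4.07, 6.36 and 4.23 at week 28. Cck-/- libraries held 6.54, 9.17 and 8.17 FPKM at week 5, 3.38, 2.82 and 4.38 at week 12 and 3.74, 2.91 and 2.91 at week 28. Among Cck-/- libraries, week 5 stood apart from both later ages, which overlapped. Enpp6 fell in Cck-/- libraries by 0.99 ± 0.17 between weeks 5 and 12 (log2 fold change ± SE; adjusted p = 0.00191, limma) and fell by 1.09 ± 0.17 between weeks 5 and 28 (adjusted p = 2.46e-04, limma). The transgenic change between weeks 5 and 12 was -0.46 ± 0.17 and not called (adjusted p = 0.255, limma).

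Neu4, a sialidase that trims sialic acid from glycans (chromosome 1, 94020493 to 94028330), was low throughout. It stood at 2.25, 2.08 and 2.00 FPKM in transgenic libraries at week 5, at 1.70, 1.46 and 1.47 at week 12 and at 1.63, 1.70 and 1.52 at week 28. Cck-/- libraries had 2.74, 2.69 and 2.59 FPKM at week 5, 1.90, 1.54 and 1.65 at week 12 and 1.93, 1.54 and 1.32 at week 28. Week 5 was above both later ages in each genotype without overlap. Neu4 fell in Cck-/- libraries by 0.45 ± 0.08 between weeks 5 and 12 (log2 fold change ± SE; adjusted p = 0.00231, limma) and by 0.51 ± 0.08 between weeks 5 and 28 (adjusted p = 2.65e-04, limma). It fell in transgenic libraries by 0.25 ± 0.08 between weeks 5 and 28 (adjusted p = 0.0255, limma), where 36.9% of all genes were called. That call was lost without week 5 replicate 1 or 2 or week 28 replicate 1 or 3 (adjusted p by limma 0.0514 to 0.0904).

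**Figure D3:**
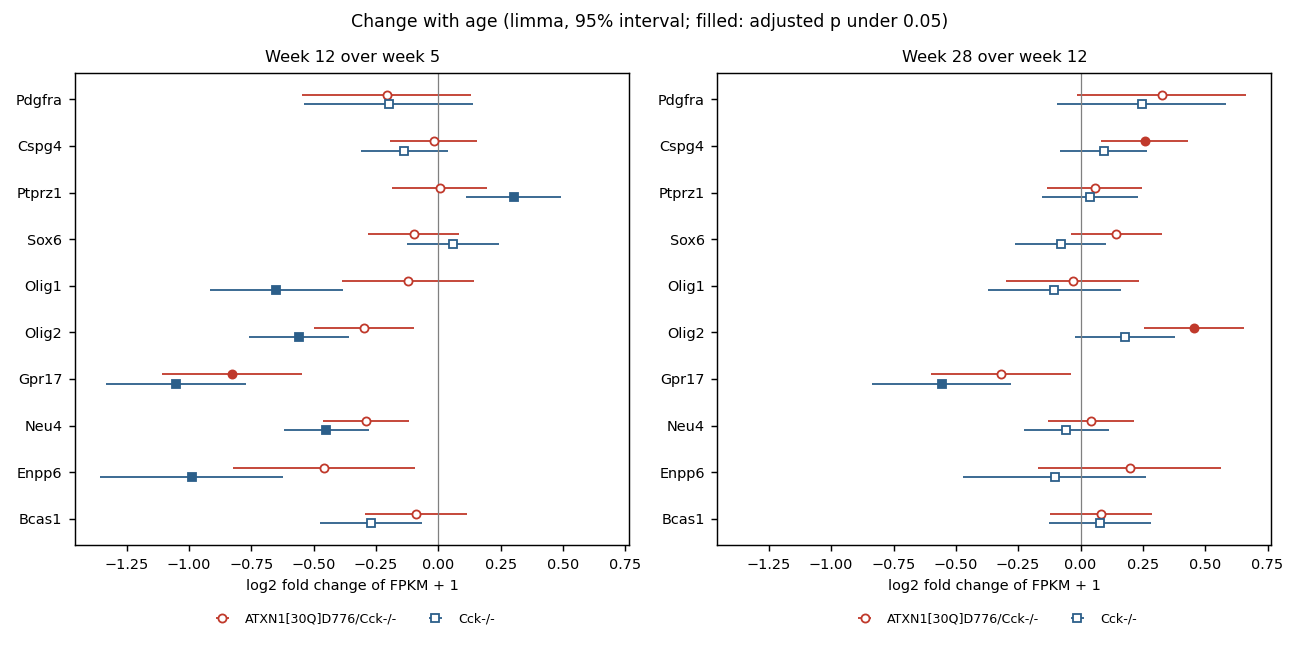
Log2 fold change of FPKM + 1 with its 95% interval (horizontal axes) for each of the 10 genes, for week 12 over week 5 (left) and week 28 over week 12 (right). Transgenic effects are red circles, drawn above the blue squares of Cck-/-, and filled symbols mark an adjusted p under 0.05 by limma. Gpr17 was called in both genotypes on the left, at -0.83 in transgenic and -1.05 in Cck-/- libraries.

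Against genes of the neighbouring stages, the fall between weeks 5 and 12 was, of the lists here, most frequent among mature myelin genes. Of 22 such genes, 8 fell in transgenic and 18 in Cck-/- libraries and none rose, with a median log2 fold change of -0.25 in transgenic and -0.88 in Cck-/- libraries. The shares of all genes called also differed between genotypes. They were 0.601% lower and 0.593% higher in transgenic libraries, and 6.53% lower and 5.29% higher in Cck-/- libraries. Fa2h, which makes hydroxylated myelin lipids, had a log2 fold change of -0.61 in transgenic and -1.30 in Cck-/- libraries, and Ugt8a, which makes galactosylceramide, of -0.78 in transgenic and -1.58 in Cck-/- libraries. Of 16 other genes of committed precursors and newly formed oligodendrocytes, 2 fell in transgenic and 7 in Cck-/- libraries, with medians of -0.10 in transgenic and -0.25 in Cck-/- libraries. Rras2, a small GTPase, fell by 0.37 in transgenic and by 0.68 in Cck-/- libraries. Of 15 other precursor genes tested, 0 were called in transgenic libraries, and in Cck-/- libraries 1 rose, the xylosyltransferase gene Xylt1 by 0.36, and 1 fell, the matrix metalloproteinase gene Mmp15 by 0.51, with medians of -0.05 in transgenic and 0.01 in Cck-/- libraries. Of 16 tested regulators of lineage progression 0 were called in transgenic libraries, and in Cck-/- libraries 1 rose and 6 fell, among them Sox10, a lineage transcription factor, by 0.47 and Lingo1, an inhibitor of differentiation, by 0.46. Among the growth factors Pdgfb rose by 0.35 in transgenic libraries, and in Cck-/- libraries Fgf2 rose by 0.49 and Pdgfc fell by 0.31. Blood markers moved with this comparison, summing to 253 to 451 FPKM in Cck-/- libraries of week 12 and 560 to 900 at week 5, with none of 6 at 0 and 0 of 5 tested called. Choroid plexus markers did so too, at 641 to 1196 FPKM at week 12 and 1642 to 2233 FPKM at week 5, with none of 10 at 0 and 0 called. Their part in the change of the oligodendrocyte genes was not tested.

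The long noncoding RNA gene 9630013A20Rik, one of the other newly formed oligodendrocyte genes, had the smallest p of that list in both genotypes. It stood at 1.53, 1.92 and 1.41 FPKM in transgenic libraries at week 5, at 1.05, 0.759 and 0.731 at week 12 and at 0.311, 0.374 and 0.479 at week 28, against 4.49, 4.51 and 4.94, then 0.851, 1.11 and 0.931, then 0.283, 0.223 and 0.247 FPKM in Cck-/- libraries. The ages did not overlap in either genotype, and at week 5 every transgenic library was below every Cck-/- library. All libraries of week 5 were above the filter's limit of 1 FPKM, and of the older ones only those at 1.05 and 1.11 FPKM were. The gene passed the filter only through its level at week 5, so comparisons of it that use week 5 were not independent of that selection. Between weeks 5 and 12, 9630013A20Rik fell by 0.50 ± 0.09 in transgenic (log2 fold change ± SE; adjusted p = 0.0127, limma) and by 1.52 ± 0.09 in Cck-/- libraries (adjusted p = 1.41e-07, limma).

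**Figure D4:**
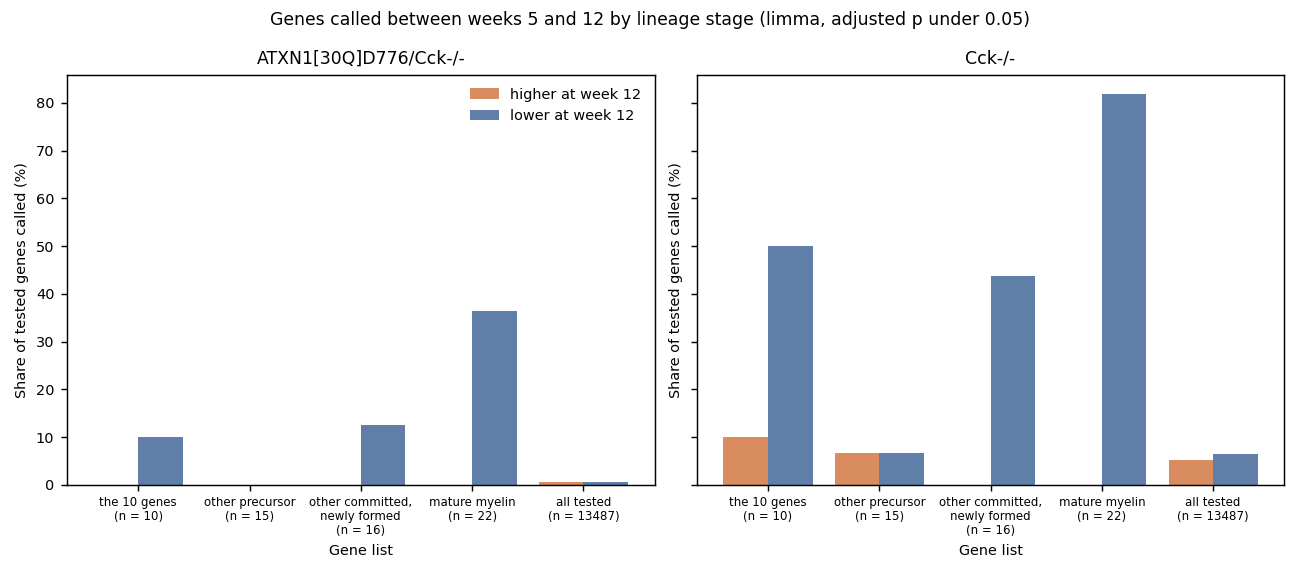
Share of the tested genes of each list that were called between weeks 5 and 12 (vertical axis, percent), higher (orange) or lower (blue) at week 12, in transgenic (left) and Cck-/- (right) libraries. Bars stand for the 10 genes, 15 other precursor genes, 16 other committed and newly formed oligodendrocyte genes, 22 mature myelin genes and all 13487 genes tested. In Cck-/- libraries 50% of the 10 genes were called lower, against 6.53% of all genes tested.

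The genotype comparison at week 5 set transgenic against Cck-/- libraries of young animals, which also differed in Cck level. Limma called 0 of the 10, against 7.67% of all genes tested. Of the 10, 4 had an unadjusted p under 0.05, against 3010 of all 13487, and those 4 were lower in every transgenic than in every Cck-/- library, as were 16% of all genes. Olig1 averaged 53.1 ± 7.16 FPKM in transgenic and 71.1 ± 3.88 FPKM in Cck-/- libraries (SD, n = 3 each), a log2 fold change of -0.42 ± 0.12 (SE; adjusted p = 0.0522, limma). The call was made without transgenic week 5 replicate 2 (-0.52, adjusted p = 0.0414, limma). Gpr17 averaged 9.81 ± 0.572 FPKM in transgenic and 12.4 ± 0.116 FPKM in Cck-/- libraries, at a log2 fold change of -0.31 ± 0.13 (adjusted p = 0.175, limma). For Olig2 the means were 9.32 ± 1.37 FPKM in transgenic and 11.3 ± 0.393 FPKM in Cck-/- libraries, at -0.26 ± 0.09 (adjusted p = 0.111, limma). Neu4 averaged 2.11 ± 0.129 FPKM in transgenic and 2.67 ± 0.0783 FPKM in Cck-/- libraries, at -0.24 ± 0.08 (adjusted p = 0.0843, limma).

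Around them, 10 of 22 mature myelin genes were called lower in transgenic libraries at week 5 and 0 higher, with a median log2 fold change of -0.41. Of all genes tested, 4.37% were called lower and 3.3% higher in this comparison. Of the other committed and newly formed genes 3 of 16 were called lower, 9630013A20Rik by a log2 fold change of -1.11, the transcription factor gene Mycl by -0.49 and Tmem163, a zinc transporter gene, by -0.37, and 0 of 15 other precursor genes were called. The myelin genes summed to 4972 to 5105 FPKM in transgenic and 6076 to 7299 FPKM in Cck-/- libraries. Choroid plexus markers, 10 in all with none at 0, summed to 50.4, 25.6 and 2789 FPKM in transgenic replicates 1, 2 and 3, against 1642 to 2233 FPKM in Cck-/- libraries. Blood markers summed to 307 to 425 FPKM in transgenic and 560 to 900 FPKM in Cck-/- libraries. Inhibitory interneuron markers, 4 of 8 called higher and none at 0, summed to 1504 to 1525 FPKM in transgenic and 1279 to 1397 FPKM in Cck-/- libraries. Purkinje cell markers, of which Car8 (-1.07) and Itpka (-0.57) among 8 were called lower, summed to 2334 to 2662 FPKM in transgenic and 2858 to 3095 FPKM in Cck-/- libraries. Bergmann glia and astrocyte markers, of which Fabp7 (-0.61) and Hopx (-0.55) among 12 were called lower, summed to 2282 to 2364 FPKM in transgenic and 2414 to 2718 FPKM in Cck-/- libraries. Of 8 pericyte and mural cell markers tested, Rgs5 was called lower (-0.78), and all 9 listed summed to 85.8 to 99.0 FPKM in transgenic and 89.8 to 98.3 FPKM in Cck-/- libraries. None of these markers was at 0 in either group, and the part of these cell types in the genotype effects was not tested. Among 10 platelet-derived and fibroblast growth factors and receptors, Pdgfb fell by 0.26 and Fgf2 rose by 0.52, growth factors that both act on precursors in culture. Of 7 ligands and partners of Ptprz1, Mdk rose by 0.37 and Tnc fell by 1.06, and of 16 tested regulators Nkx6-2, a homeodomain factor of the lineage, fell by 0.33.

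At week 12 limma called 0 of the 10 genes between genotypes, against 1.36% of all genes, and 1 of the 10 and 1623 of all 13487 had an unadjusted p under 0.05. That gene was Bcas1, which codes for a protein of early myelinating oligodendrocytes (chromosome 2, 170346991 to 170427845). In transgenic libraries Bcas1 stood at 44.4, 51.1 and 49.5 FPKM at week 5, at 44.7, 49.7 and 41.8 at week 12 and at 48.7, 49.9 and 45.4 at week 28. Bcas1 in Cck-/- libraries stood at 40.0, 46.7 and 42.7 FPKM at week 5, at 37.97, 35.5 and 33.3 at week 12 and at 41.0, 41.0 and 31.6 at week 28. The genotypes overlapped at week 5, and at weeks 12 and 28 every transgenic library was above every Cck-/- library. At week 12 the log2 fold change was 0.34 ± 0.10 (SE; adjusted p = 0.101, limma), and 7.95% of all genes were likewise higher without overlap.

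At week 28 Bcas1 was higher in transgenic libraries by 0.34 ± 0.10 (log2 fold change ± SE; adjusted p = 0.0330, limma) and was the only 1 of the 10 genes called, against 10.7% of all genes tested. The call was lost without Cck-/- replicate 3 (0.22, adjusted p = 0.124, limma) or transgenic replicate 1 or 2 (0.33 and 0.32, adjusted p by limma 0.107 and 0.134). Averaged over weeks 12 and 28, where 11.4% of all genes were called, Bcas1 rose by 0.34 ± 0.07 (adjusted p = 0.00366, limma). That averaged call held in all 24 alternatives, with a log2 fold change of 0.28 to 0.38 and a highest adjusted p by limma of 0.0333. Of the exon bases of Bcas1, 440 of 3775 (11.7%) lie under the antisense gene Bcas1os1, with strand use in counting not given.

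Olig2 and Enpp6 were also higher in every transgenic than in every Cck-/- library at week 28, which with Bcas1 makes 3 of the 10, against 13.2% of all genes, and neither was called. Olig2 averaged 10.5 ± 1.43 FPKM in transgenic and 8.46 ± 0.756 FPKM in Cck-/- libraries (SD, n = 3 each), a log2 fold change of 0.28 ± 0.09 (SE; adjusted p = 0.0751, limma). It was called without transgenic replicate 3 or Cck-/- replicate 1 (adjusted p by limma 0.0422 and 0.0475). Enpp6 averaged 4.89 ± 1.28 FPKM in transgenic and 3.19 ± 0.478 FPKM in Cck-/- libraries, at 0.48 ± 0.17 (adjusted p = 0.0903, limma).

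At week 28, 4.54% of all genes tested were called higher in transgenic libraries and 6.13% lower, shares against which the lists are to be read. Of 22 mature myelin genes 4 were called higher and 0 lower, with a median log2 fold change of 0.22. These were Mbp, myelin basic protein, by 0.44, Fa2h by 0.29, the tight junction gene Cldn11 by 0.47 and Ermn, a cytoskeletal gene of late oligodendrocytes, by 0.37. Among 16 tested regulators of lineage progression 3 rose and 1 fell: Myrf, the transcription factor of myelin genes, by 0.41, Sox10 by 0.40 and the receptor gene Notch1 by 0.38, and Id2, an inhibitor of differentiation, by -0.46. Vcan, a proteoglycan of precursors, rose by 0.51 and Rlbp1, a retinoid-binding protein gene, by 0.54 among 15 other precursor genes, of which 0 fell. Of the other committed and newly formed genes Prom1 rose by 0.26, and Mycl and Chn2 fell by 0.48 and by 0.46. Mdk, which codes for midkine, a ligand of Ptprz1, rose by 0.35 and Tnc, which codes for its partner tenascin C, fell by 1.14, whereas Ptprz1 itself was not called. The contactin gene Cntn1, for another partner, rose by 0.18, Fgfr1 rose by 0.39 among the 10 platelet-derived and fibroblast growth factor genes, and Ccnd1, a cyclin of the cell cycle, rose by 0.47 among 6 tested proliferation genes. Purkinje cell markers, all 8 of which were called lower and none at 0, summed to 953 to 1856 FPKM in transgenic and 2811 to 3014 FPKM in Cck-/- libraries. Microglia markers, 5 of 9 called higher and none at 0, summed to 151 to 235 FPKM in transgenic and 92.7 to 137 FPKM in Cck-/- libraries. Of 12 Bergmann glia and astrocyte markers, none at 0, 3 were called higher and 5 lower: Gfap by a log2 fold change of 1.45, Aqp4 by 1.04 and Gja1 by 0.73, and Slc1a3 by -0.72, Gdf10 by -0.72, Fabp7 by -0.66, Aldoc by -0.45 and Hopx by -0.45. Their sums were 2216 to 2405 FPKM in transgenic and 2293 to 2725 FPKM in Cck-/- libraries. Inhibitory interneuron markers, 2 of 8 called lower and none at 0, were Gad1 at -0.28 and Pvalb at -0.57, with sums of 1112 to 1697 FPKM in transgenic and 1553 to 1740 FPKM in Cck-/- libraries. Choroid plexus markers, 10 in all with none at 0, summed to 60.9 to 1996 FPKM in transgenic and 1208 to 2713 FPKM in Cck-/- libraries. What these cell types contribute to the values of the 10 genes was not tested.

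**Figure D5:**
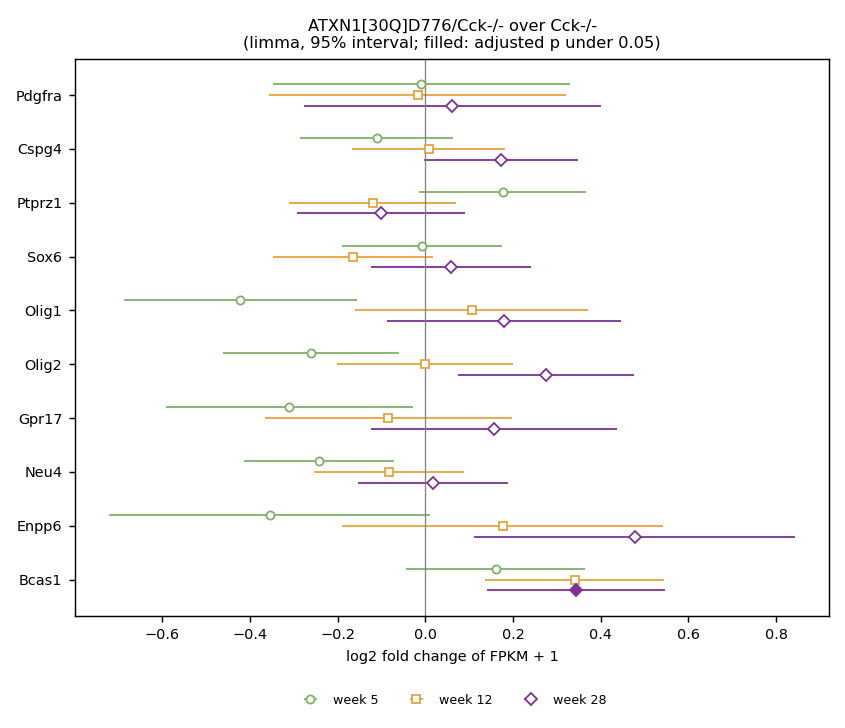
Log2 fold change of FPKM + 1, transgenic over Cck-/-, with its 95% interval (horizontal axis) for each of the 10 genes at week 5 (green circles), week 12 (orange squares) and week 28 (purple diamonds). Filled symbols mark an adjusted p under 0.05 by limma, which Bcas1 at week 28 alone reached, at 0.34. Olig2 was at -0.26 at week 5 and at 0.28 at week 28.

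The genotype effect thus pointed down at week 5 and up at week 28 for several of the genes, and the interaction tested this change directly. For week 28 against week 5 limma called 1 of the 10, Olig2, with an interaction of 0.54 ± 0.13 on the log2 scale (SE; adjusted p = 0.0383), against 3.65% of all genes. Of the 12 libraries of weeks 5 and 28, each left out in turn, the call was lost without every one except Cck-/- week 28 replicate 1, transgenic week 5 replicate 2 and transgenic week 28 replicate 3 (adjusted p by limma 0.0639 to 0.0964). Enpp6 had an interaction of 0.83 ± 0.24 (adjusted p = 0.0714, limma) and Olig1 of 0.60 ± 0.18 (adjusted p = 0.0736, limma), neither called. Without transgenic week 28 replicate 3 both were called (adjusted p by limma 0.0471 and 0.0484), and Olig1 also without Cck-/- week 28 replicate 1 (0.0294). The interaction was 0.47 ± 0.19 for Gpr17, 0.28 ± 0.12 for Cspg4 and 0.26 ± 0.11 for Neu4, none of them called (adjusted p by limma 0.179, 0.188 and 0.225). For Ptprz1 it went the other way, at -0.28 ± 0.13, and was not called (adjusted p = 0.241, limma). For Bcas1, Pdgfra and Sox6 it was 0.18, 0.07 and 0.07, also not called. In this test 7 of the 10 genes and 2656 of all 13487 had an unadjusted p under 0.05. For week 28 against week 12, 0 of the 10 genes and 0 of all 13487 were called by limma, with 0 and 1365 at an unadjusted p under 0.05.

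The same interaction was called for 11 of 22 mature myelin genes, all positive, with a median of 0.66. Among the regulators it was called for Sox10, at 0.75, and Myrf, at 0.59, and among the other committed and newly formed genes for 9630013A20Rik, at 1.26, and Prom1, at 0.43. It was called for 0 of 15 other precursor genes, whose median was 0.08. Of all genes tested, 1.73% were called with a positive and 1.92% with a negative interaction.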

How the data were processed

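Cerebellar RNA was purified with TRIzol and RNeasy columns and made into Illumina TruSeq libraries, per the labels' protocols. The authors deposited FPKM per gene symbol, made with TopHat2 2.0.11 and Cufflinks 2.2.1 on mm10, per the submitters' processing notes. Which annotation, strand setting and scaling across libraries they used is not given in the sources used here. FPKM are not counts. FPKM also depends on every other gene in a library, so a shift in cell makeup can move its value.

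Columns were matched to libraries by the labels. Of 22783 genes, the 13487 at 1 FPKM or more in at least 3 of 18 libraries were tested on log2(FPKM + 1) with limma 3.58.1 (R 4.3.3), with 6 group means, a mean-variance trend and 12 residual degrees of freedom. The pseudocount of 1 understates changes of low genes such as Cspg4 and Neu4. Benjamini-Hochberg adjustment ran over all tested genes in each of 13 comparisons, and genes under 0.05 are said to be called. The code was tested on simulated data. Relative depth came from the spacing of low FPKM values, where neighbouring values differ by a whole read, and all 153 library pairs gave estimates that fitted each other within 0.1 on the log2 scale. Absolute depth is unknown, so no counting intervals are given. Comparisons within one genotype share libraries, as do the genotype effects and interactions.

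The 10 genes, the lists and the tests were chosen with earlier results of these data known. Each of the 10 genes is described, but not every gene is given in every comparison. From most other lists, up to 4 called genes with the smallest p are named, and 9630013A20Rik and Vcan are among them. More are named for Bergmann glia and astrocyte markers, and fewer where lists are summarised. Pcp2, Cck, Dcn and Lims2 served as checks, Lims2 chosen because it shares a locus with Gpr17. Lims2 is also on the list of other committed and newly formed genes. Replicate numbers were tested for pairing before fits were compared. Deviations from group means correlated between same-numbered libraries at -0.39 to 0.44 over 45 pairs, with 15 above 0.1. Libraries of different number correlated at -0.49 to 0.48 over 90 pairs, with 37 above 0.1. The numbers were therefore not taken to pair the libraries, although these correlations cannot show whether same-numbered libraries shared a batch. Alternatives were no filter or a mean of at least 5 FPKM, pseudocounts of 0.1 and 0.5, quantile normalization, rescaling by median ratios, no trend, the replicate number as a block, the groups compared alone and each library left out. Chosen after seeing the data, 3 more left out 3 libraries low in choroid plexus genes (mean log2 below 2), left out 3 libraries with Xist and Y-linked genes each at 1 FPKM or more, and used the Xist level as a covariate. All libraries so left out were transgenic. The low-choroid ones were week 5 replicates 1 and 2 and week 28 replicate 3. The others were week 5 replicate 1, week 12 replicate 2 and week 28 replicate 1. Median Xist at weeks 5, 12 and 28 was 61.2, 58.8 and 91.4 FPKM in transgenic and 0.882, 0.157 and 74.6 FPKM in Cck-/- libraries.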

Additional observations from a re-analysis of the deposited data

Results flagged for a closer look

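The genotype effect on Olig2 was called different between week 28 and week 5, by a test of the difference itself: the interaction was 0.54 ± 0.13 on the log2 scale (SE; adjusted p = 0.0383, limma). That call was lost in 12 of 24 alternatives. Olig2 stood at 9.81, 12.1 and 9.53 FPKM in transgenic libraries at week 28, against 9.15, 8.58 and 7.66 FPKM in Cck-/- libraries. At week 5 it stood at 7.88, 10.6 and 9.48 FPKM in transgenic libraries, against 10.9, 11.7 and 11.3 FPKM in Cck-/- libraries. The genotypes did not overlap at either age, with the transgenic libraries higher at week 28 and lower at week 5. Over 24 alternatives the interaction stayed positive, at 0.43 to 0.63, and its adjusted p by limma ran from 0.0176 to 0.131. Cck level differed between the genotypes at week 5 and cannot be told apart from the interaction.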

How the results depend on the processing

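The count of the 10 genes called kept within 1.5 times its value in every alternative run for both Cck-/- changes from week 5, the averaged genotype effect, the week 12 genotype effect and the interactions that use week 12. At week 5 the genotype count of 0 became 1 with a mean FPKM of at least 5 and 2 with the compared groups alone, and it was 0 to 1 with a library left out. At week 28 the genotype count of 1 became 0 with no filter, 0 with the compared groups alone, 2 without the 3 low-choroid libraries and 0 without the 3 with Xist and Y-linked genes, and 0 to 2 with a library left out. The interaction of week 28 against 5 had 1 gene called, which became 0 with no filter, 0 with the compared groups alone, 0 without the 3 Xist and Y-linked libraries, and 0 to 3 with a library left out. The transgenic change from week 12 to 28 had 2 called, which became 1 with a mean of at least 5, 1 with the compared groups alone, 1 without the 3 Xist and Y-linked libraries and 1 to 2 with a library left out. The transgenic change from week 5 to 12 had 1 called, which became 0 without either set of 3 libraries. The transgenic change from week 5 to 28 had 3 of the 10 called, against 36.9% of all genes tested. That count became 1 with a mean of at least 5, 1 without the 3 Xist and Y-linked libraries and 1 to 3 with a library left out. The Cck-/- change from week 12 to 28 had 1 called, which became 0 with the compared groups alone and 0 to 1 with a library left out. The mean filter leaves Pdgfra, Cspg4, Enpp6, Neu4 and Sox6 untested, so counts under it cover only the remaining genes. The other causes were not tested.

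With the replicate number as a block, although it was not taken to pair the libraries, 2 of the 10 genes were called at week 5 between genotypes and 2 in the interaction of week 28 against 5. The genotype effect on Pdgfra, near 0 at each age, turned positive at week 5 without the low-choroid libraries (0.0453), without those with Xist and Y-linked genes (0.0447) and with Xist as a covariate (0.00735), and ran from -0.0368 to 0.0447 with a library left out. At week 12 it turned positive without the Xist and Y-linked libraries (0.0331) and with Xist as a covariate (0.000427), and ran from -0.152 to 0.0652 with a library left out. At week 28 it ran from -0.0790 to 0.271 with a library left out.

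Over all genes and alternatives the count called ran from 309 to 1152 for genotype at week 5, 59 to 233 at week 12, 337 to 1983 at week 28 and 772 to 2064 averaged. It ran from 28 to 95, 0 to 149 and 65 to 1058 for the interactions of week 12 against 5, week 28 against 12 and week 28 against 5. For the age changes in transgenic libraries it ran from 28 to 168, 984 to 3546 and 2587 to 5403 for weeks 5 to 12, 12 to 28 and 5 to 28, and in Cck-/- libraries from 955 to 1715, 140 to 1309 and 3551 to 4687. Read counts behind each value, and so the counting error of genes near 1 FPKM such as Cspg4 and Neu4, are unknown.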

Other observations

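Vcan, a proteoglycan made by precursors and other cells, stood at 6.16, 6.36 and 5.69 FPKM in transgenic libraries at week 5, at 5.79, 3.47 and 4.54 at week 12 and at 7.77, 8.29 and 6.70 at week 28. In Cck-/- libraries it stood at 4.59, 5.13 and 5.42 FPKM at week 5, at 4.41, 4.26 and 5.42 at week 12 and at 5.10, 5.28 and 4.74 at week 28. The transgenic libraries of week 28 were above all other 15 libraries. Vcan rose in transgenic libraries between weeks 12 and 28 by 0.63 ± 0.12 (log2 fold change ± SE; adjusted p = 0.00245, limma).

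Olig1 per Olig2, as a ratio of FPKM, ranged from 5.45 to 5.93 at week 5, 5.76 to 7.39 at week 12 and 3.69 to 5.49 at week 28 in transgenic libraries. It ranged from 6.10 to 6.47, 5.200 to 6.72 and 4.57 to 5.42 in Cck-/- libraries of the same ages. Gpr17 per 1000 FPKM of Mbp ranged from 3.97 to 4.27, 2.69 to 3.26 and 1.69 to 2.59 in transgenic libraries and from 3.84 to 4.37, 3.31 to 4.48 and 2.38 to 2.55 in Cck-/- libraries, and the genotypes overlapped at week 5 in this ratio.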
